A study of Rattus norvegicus with 6 samples.

Results

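The tumour necrosis factor (TNF) superfamily is a group of cytokine ligands, most of them anchored in the membrane as trimers, and of the receptors that bind them. Receptors with a death domain in their cytoplasmic tail can recruit caspase-activating or kinase complexes, while the other receptors pass the signal on through TRAF adaptor proteins to NF-kappaB and the JNK and p38 kinases. In the dorsal root ganglion (DRG), where the cell bodies of sensory neurons lie among satellite glia, Schwann cells and resident macrophages, TNF and its receptors are known for their part in pain after nerve injury. Members were chosen by gene symbol alone. They are TNF ligands, TNF receptors, TRAF proteins with the proteins named for binding them, and proteins named for their induction by TNF. The last set includes genes named for likeness to Tnfaip8. Receptors under other symbols, such as Ngfr and Ltbr, are not members and are described with the other genes of the pathway. The choice by symbol gave 57 genes out of 27943 symbols in a table of 43350 gene rows, with 1 row kept per symbol. By role they are 17 ligands, 5 receptors with a death domain, 17 other receptors, 7 TRAF adaptors, 3 TRAF-interacting proteins and 8 TNF-induced proteins.

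The study compared gene expression in the DRG of rats with chronic constriction injury (CCI) of the sciatic nerve, a model of neuropathic pain, with that of sham rats. All were male Sprague-Dawley rats and the ipsilateral lumbar ganglia of the left side were taken on day 11 after surgery. In the CCI group (n = 3) the sciatic nerve was loosely ligated with suture. In the sham group (n = 3) it was exposed and not tied, according to the methods, although the labels list the sham rats as given no treatment. The methods name 1 rat per sample, whereas the library protocol in the labels speaks of a pooled sample, so each library is taken here as 1 rat. Rats entered the groups only after behavioural tests, if they had performed in the way looked for after their surgery, which limits both groups to such animals. The labels do not give the age of each rat, while the methods give a range in weeks for all rats when they were acquired.

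Each library is named by its group and number. The read counts per gene row summed to 81131861, 80479671 and 75423546 in CCI 1, 2 and 3 and to 87615743, 80046488 and 83695350 in sham 1, 2 and 3. Levels are given in CPM, the counts of a gene taken relative to the TMM-scaled size of its library, or, for comparisons between genes, in FPKM, which also divides by the length of the row. A floor of 3 counts corresponded to 0.0342 to 0.0394 CPM per library and covers counting error only. The quasi-likelihood test of edgeR was run on the 26663 rows whose mean FPKM reached 0.5. A gene was called higher or lower when its unadjusted p was under 0.05 and its log2 fold change reached 0.58 in either direction, the limits used in the study. Fold changes are CCI over sham, with a standard error (SE) from the same fit. With 3 rats per group no exact test by permutation can give a single gene a p this low, so p-values come from the model fitted across all rows.

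The libraries carried the markers of the labelled tissue. The 12 sensory neuron markers summed to 4960 to 5500 FPKM in every library, led by the neuronal tubulin Tubb3 with a mean of 1250 FPKM, and none of them was at 0. Within this even sum single markers moved with the groups in opposite directions below the limit on fold, with 4 lower in the CCI group (Nefl, Nefh, Trpv1 and Calca) and 2 higher (Tubb3 and Prph) at an unadjusted p under 0.05. The largest of these log2 fold changes were -0.57 for Nefl (SE 0.06, adjusted p = 0.0457 by the quasi-likelihood test of edgeR after Benjamini-Hochberg adjustment) and -0.54 for Nefh (SE 0.08). Libraries stood apart in other lists. Skeletal muscle markers (6 of 9 in the table, all tested, most abundant Acta1, none at 0 in every library) summed to 125 FPKM in sham 1, against 5.20 in sham 2, 18.3 in sham 3 and 8.40, 5.42 and 4.26 in CCI 1, 2 and 3, and 4 of them were called lower in the CCI group, against 0 (and 0 lower at an unadjusted p under 0.05) by edgeR's test without sham 1. Neutrophil markers were also highest in sham 1, at 27.4 FPKM, and lay between 7.23 and 14.9 FPKM elsewhere. The 7 nerve injury markers, among them Atf3 and Gal, were all called higher in the CCI group, with sums of 416, 253 and 223 FPKM in CCI 1, 2 and 3 and of 70.6, 72.0 and 64.1 FPKM in sham 1, 2 and 3. CCI 1 was the highest library in this list. The called members of the family are therefore also given without sham 1 and without CCI 1.

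**Figure D1:**
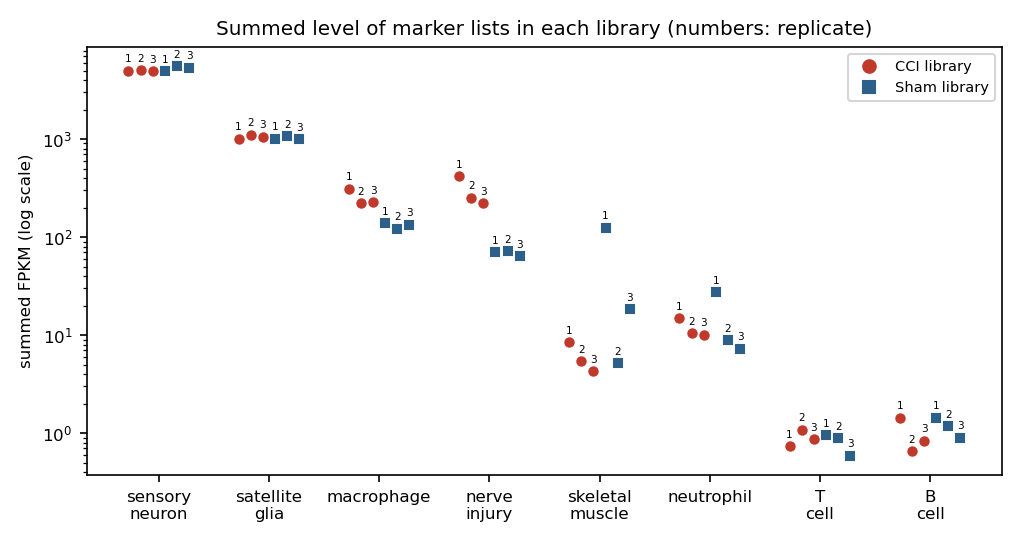
Summed FPKM of the marker genes of 8 lists (log axis) in each of the 6 libraries, with circles for CCI, squares for sham and the replicate number above each point. Sham 1 stands above the other libraries for skeletal muscle at 125 FPKM, and the nerve injury and macrophage sums of all CCI libraries lie above those of all sham libraries.

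Macrophage markers moved with the groups and stand beside every family result below, since macrophages carry many members of the family. Of 13 such markers, all tested, 7 were called higher (Cd68, Csf1r, Cx3cr1, Tyrobp, C1qa, C1qb and Lyz2) and 0 lower by edgeR's test, with 8 of the 13 higher and 0 lower at an unadjusted p under 0.05 at any fold. Their summed level was 311, 222 and 226 FPKM in CCI 1, 2 and 3 and 138, 122 and 134 FPKM in sham 1, 2 and 3, with Lyz2 the most abundant and no marker at 0 in every library. Markers of T cells (9 of 10 in the table) and of B cells (7) all lay under the filter, with sums of 0.589 to 1.08 FPKM and of 0.648 to 1.43 FPKM, whose ranges overlapped between the groups. Among the T cell markers Cd8a, named after its values were seen, had 1, 4 and 19 counts in CCI 1 to 3 and 0 in each sham library, and it was called higher in the fit with no filter. Other T cell markers went the other way without a call. Cd3d had 0 counts in each CCI library and 4, 0 and 4 in sham 1 to 3. Cd8b had 0 in each CCI library and 8, 0 and 0 in sham 1 to 3, and Cd3g had a log2 fold change of -1.15 (SE 1.55) in that fit. In bulk ganglia, a change in the number of cells of a type and a change in the RNA of each cell cannot be told apart. The part that neurons, macrophages or muscle tissue had in the values of the family was not tested.

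Of the 57 members, 30 passed the filter and were tested, 24 had counts but lay under it, and 3 had no count in any library. The highest member below the filter had a mean of 0.443 FPKM and the lowest above it 0.575 FPKM. Only 2 members were called higher in the CCI group, Tnfaip6 and Tnfaip8l3, which is 6.67% of the 30, beside 2.57% of all rows tested. By edgeR's test 0 members were called lower, beside 1.26% of all rows, and 0 had a negative fold change at an unadjusted p under 0.05; DESeq2 and limma likewise called 0 lower. Without the limit on fold, 5 members (16.7%) were higher at an unadjusted p under 0.05, Tnfrsf21, Tnfrsf1a, Tnfaip8l3, Traf6 and Tnfaip6, beside 5.57% of all rows higher and 5.18% lower. With Benjamini-Hochberg adjustment of edgeR's quasi-likelihood test over all rows, 0 members passed an adjusted p under 0.05, beside 25 rows in all (0.0938%), while DESeq2 passed 2 members, beside 751 rows in all (2.82%), and limma 0.

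Differences between the groups were small for most of the family. All 3 CCI libraries lay above all 3 sham libraries in 7 of the tested members (23.3%), beside 8.63% of all rows, and below them in 0, beside 8.7%. The median log2 fold change of the tested members was 0.13, with 20 above 0 and 10 below, and it was 0.006 over all rows. Fold changes ran from -0.29 for Traf2 and Tnfsf15 to 1.21 for Tnfaip6. The median coefficient of variation of CPM between rats was 13.5% in the CCI group and 12.4% in the sham group. These counts and medians describe the family and nothing particular to it is drawn from them.

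**Figure D2:**
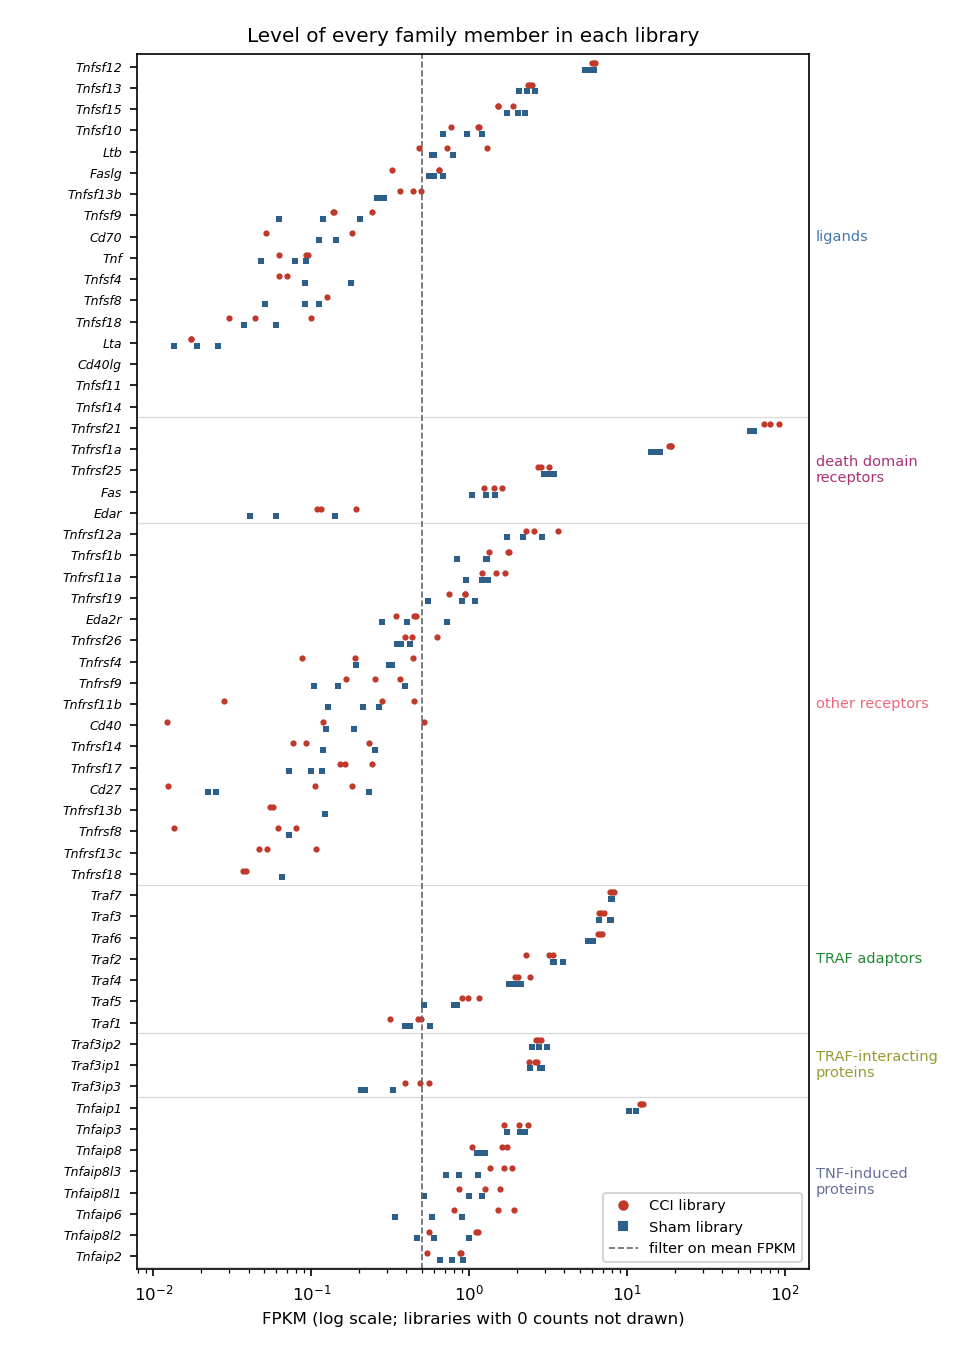
FPKM (log axis) of every member in each library, ordered by role and by mean level, with circles for CCI, squares for sham and libraries with 0 counts left out. The dashed line marks the filter at a mean of 0.5 FPKM. Tnfrsf21 and Tnfrsf1a lie farthest to the right, and most ligands and receptors lie left of the line.

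**Figure D3:**
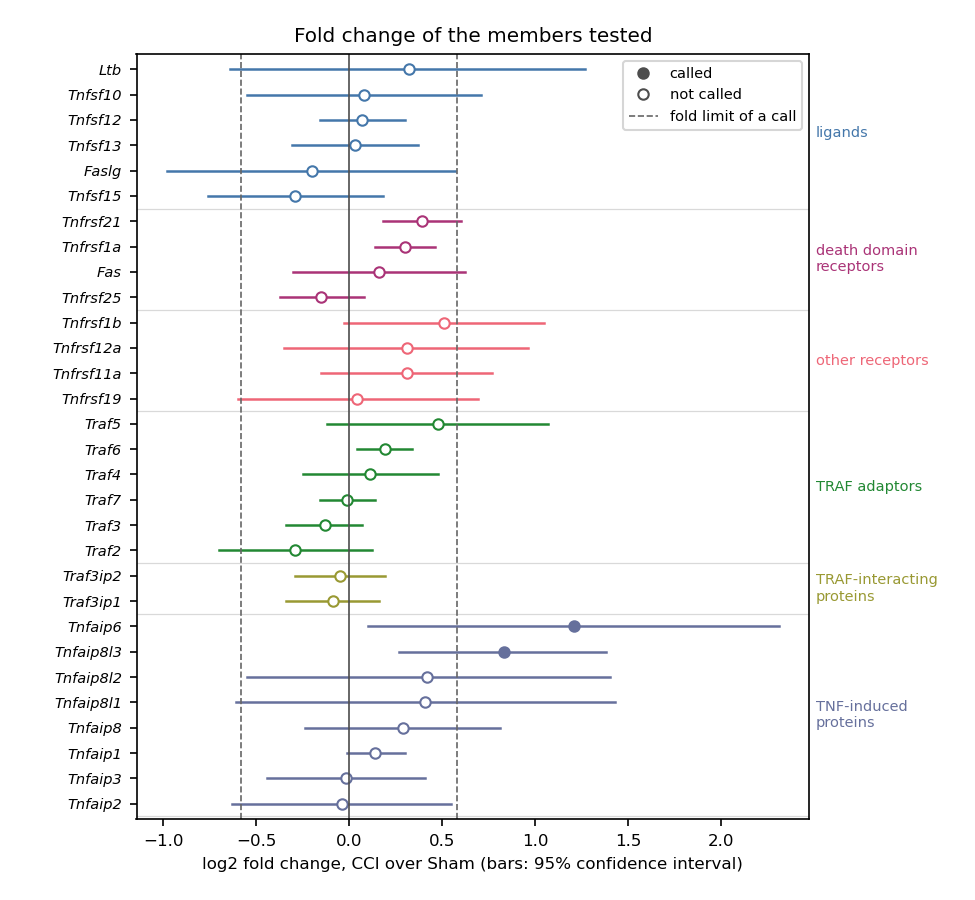
Log2 fold change (CCI over sham) of the 30 members tested, by role, with bars for the 95% confidence interval, filled points for the 2 members called and dashed lines at the fold limit of 0.58. The intervals of Tnfrsf21, Tnfrsf1a and Traf6 lie above 0 with their centres inside the fold limit.

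Among the ligands, 6 of 17 were tested and none of these was called in either direction by edgeR, DESeq2 or limma, nor did any reach an unadjusted p under 0.05 with edgeR. The most abundant was Tnfsf12 (TWEAK), a ligand of the receptor Tnfrsf12a, with 10.4, 10.1 and 10.5 CPM in CCI 1, 2 and 3 and 9.83, 10.5 and 9.20 CPM in sham 1, 2 and 3. These values overlap, and the log2 fold change was 0.07 (SE 0.10). Tnfsf13 (APRIL), a ligand for receptors of plasma and B cells, measured 4.45, 4.69 and 4.56 CPM in CCI 1, 2 and 3 and 4.40, 5.02 and 4.0 CPM in sham 1, 2 and 3, again with the sham libraries on both sides of the CCI libraries. Tnfsf15, the ligand of Tnfrsf25, had 1.77, 1.76 and 2.18 CPM in CCI 1, 2 and 3 and 1.99, 2.64 and 2.36 CPM in sham 1, 2 and 3, a log2 fold change of -0.29 (SE 0.19). Here the sham libraries were mostly the higher ones and the groups overlapped. A further row with the symbol Tnfsf15, not counted as a member, held more reads. It had 482, 620 and 668 counts in CCI 1 to 3 and 749, 560 and 700 in sham 1 to 3. The log2 fold change of that row was -0.1 (SE 0.17), also with overlapping groups. Tnfsf10 (TRAIL), Ltb and Faslg, the remaining tested ligands, had log2 fold changes of 0.08, 0.32 and -0.20.

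Tnf itself was close to the floor. It had 15, 10 and 13 counts in CCI 1 to 3 and 13, 14 and 8 in sham 1 to 3, a mean of 0.0782 FPKM. The groups overlapped throughout, and at this depth a difference was not detectable. Fitted without the filter, its log2 fold change was 0.18 with a 95% interval from -1.31 to 1.68, so the counts leave room for a change in either direction. The Tnf gene also lies within the span of long rows that join genes of the RT1 region, and the share of its reads assigned there was not analysed here. Lta, the ligand encoded beside Tnf, had 0 to 4 counts per library, no more than 1 count above the floor. Cd70, Tnfsf4, Tnfsf8, Tnfsf9 and Tnfsf18 had 0 to 45 counts per library, with overlapping groups in each. Cd40lg, Tnfsf11 (RANKL) and Tnfsf14 had 0 counts in all 6 libraries. By counting error alone this allows up to 0.0342 to 0.0394 CPM in each. It is no upper limit on expression, since a 0 in this table need not mean low expression, as described below.

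The receptors with a death domain held the most abundant of the members chosen by symbol. Tnfrsf21 (death receptor 6), a receptor of neurons and other cells, led with a mean of 71.5 FPKM over all libraries, followed by Tnfrsf1a, the main receptor of soluble TNF, with 16.9 FPKM. Tnfrsf21 had 35199, 30599 and 26422 counts in CCI 1 to 3 and 25165, 24258 and 24416 in sham 1 to 3. Scaled to library size, every CCI library was above every sham library, and CCI 1 was the highest. Its mean was 81.4 ± 8.85 FPKM in the CCI group and 61.6 ± 1.70 FPKM in the sham group (SD, n = 3), and the log2 fold change of 0.39 (SE 0.09, unadjusted p = 0.00365, adjusted p = 0.208 by the quasi-likelihood test of edgeR after Benjamini-Hochberg adjustment) was below the limit on fold. Without CCI 1 the log2 fold change was 0.30, the lowest over the libraries left out in turn. A short row on the opposite strand inside Tnfrsf21 held 0.637% as many counts as the gene.

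Tnfrsf1a measured 44.0, 44.3 and 42.6 CPM in CCI 1, 2 and 3 and 35.0, 37.9 and 33.6 CPM in sham 1, 2 and 3. The CCI libraries lay close together and all above the sham libraries. The log2 fold change was 0.30 (SE 0.07, 95% interval 0.14 to 0.46, unadjusted p = 0.00366, adjusted p = 0.208 by the quasi-likelihood test of edgeR after Benjamini-Hochberg adjustment), and the interval lies inside the limit on fold. With DESeq2 in place of edgeR, Tnfrsf1a and Tnfrsf21 had adjusted p-values of 0.0461 and 0.0143 (Benjamini-Hochberg), the lowest of their alternatives, of which the highest were 0.474 and 0.467. Both remained below the limit on fold there.

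Tnfrsf25 (death receptor 3), the receptor of Tnfsf15, had 21.6, 22.4 and 25.1 CPM in CCI 1, 2 and 3 and 23.2, 27.3 and 26.0 CPM in sham 1, 2 and 3. The groups overlapped, with a log2 fold change of -0.15 (SE 0.09), and since the row joins Tnfrsf25 with its neighbour Plekhg5, reads of these genes cannot be told apart. Fas, the receptor of Faslg, had a log2 fold change of 0.16 (SE 0.19), and Edar, the ectodysplasin receptor, lay under the filter with 14 to 59 counts per library.

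Of the other receptors, 4 of 17 were tested, 0 were called by edgeR, DESeq2 or limma, and 0 had an unadjusted p under 0.05 in edgeR's test. Tnfrsf1b, the other TNF receptor, which has no death domain and is carried largely by immune cells, came nearest to a call. It had 5.62, 5.67 and 4.22 CPM in CCI 1, 2 and 3 and 4.09, 2.67 and 4.12 CPM in sham 1, 2 and 3. CCI 3 was only just above sham 1 and sham 3, so that the groups stood apart by a narrow margin. The log2 fold change was 0.51 (SE 0.23, 95% interval -0.03 to 1.05), and without CCI 3 it was 0.64, which was then called (unadjusted p = 0.0388 by the quasi-likelihood test of edgeR), while without sham 2 it was 0.33. A further row with the symbol Tnfrsf1b, not counted as a member, did not follow. It had 1.81, 1.8 and 1.74 CPM in CCI 1, 2 and 3 and 1.88, 1.74 and 1.68 CPM in sham 1, 2 and 3. The log2 fold change of that row was 0.01 (SE 0.17).

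Tnfrsf12a (Fn14), a receptor of injured and growing tissue, measured 3.87, 2.41 and 2.71 CPM in CCI 1, 2 and 3 and 2.31, 3.09 and 1.85 CPM in sham 1, 2 and 3. Only CCI 1 was above all sham libraries, and the log2 fold change of 0.31 (SE 0.27) was 0.08 without CCI 1 and 0.52 without sham 2. Tnfrsf11a (RANK), the receptor of Tnfsf11, had 3.80, 4.63 and 5.21 CPM in CCI 1, 2 and 3 and 4.10, 3.05 and 3.84 CPM in sham 1, 2 and 3. Its groups overlapped as well, with a log2 fold change of 0.31 (SE 0.19). Tnfrsf19, the remaining receptor tested, had a log2 fold change of 0.04. The 13 receptors without a death domain that lay under the filter had between 0 and 135 counts per library. Groups overlapped in Cd27, Cd40, Eda2r, Tnfrsf4, Tnfrsf8, Tnfrsf9, Tnfrsf11b, Tnfrsf13b, Tnfrsf14, Tnfrsf18 and Tnfrsf26, while Tnfrsf13c and Tnfrsf17, which bind the B cell factors, are described with the members of low count below.

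**Figure D4:**
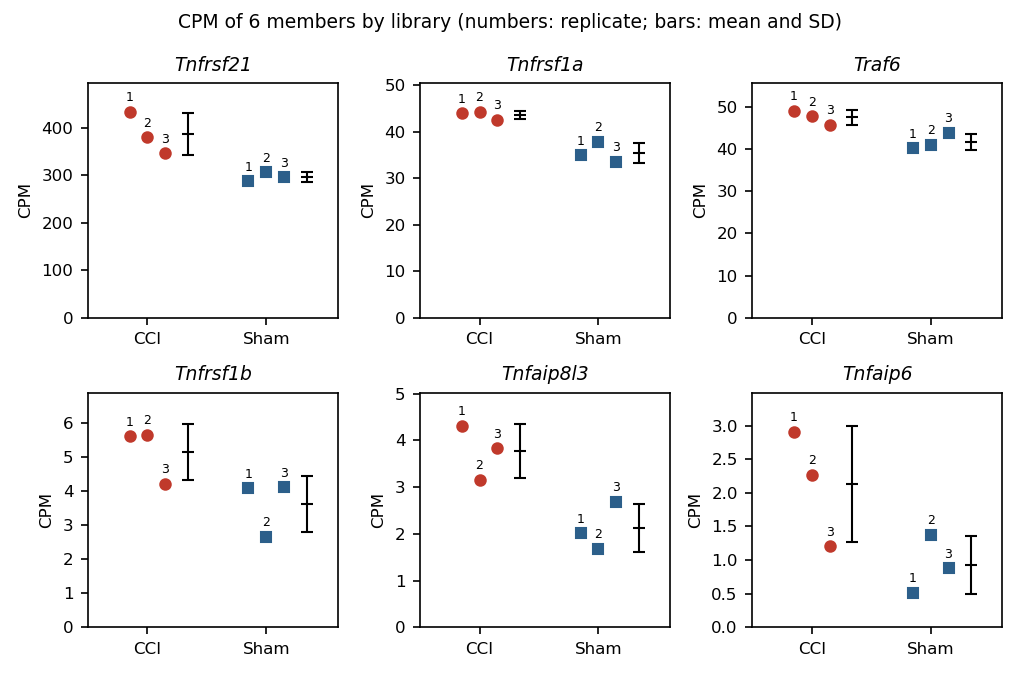
CPM of 6 members in each library, with the axis from 0, circles for CCI, squares for sham, the replicate number above each point and bars for the mean and SD of each group (n = 3). Tnfrsf21, Tnfrsf1a, Traf6, Tnfrsf1b and Tnfaip8l3 have no overlap between groups, and in Tnfaip6 CCI 3 at 1.21 CPM lies below sham 2 at 1.38 CPM.

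Of the 7 TRAF adaptors, 6 were tested, 0 were called by edgeR, DESeq2 or limma, and Traf6 alone had an unadjusted p under 0.05 in edgeR's test. Traf6, a ubiquitin ligase used by Cd40 and Tnfrsf11a and also by interleukin-1 and Toll-like receptors, measured 49.2, 47.8 and 45.8 CPM in CCI 1, 2 and 3 and 40.2, 41.1 and 43.9 CPM in sham 1, 2 and 3. All CCI libraries were above all sham libraries by a narrow margin, with a log2 fold change of 0.19 (SE 0.06, unadjusted p = 0.0216, adjusted p = 0.36 by the quasi-likelihood test of edgeR after Benjamini-Hochberg adjustment). Its unadjusted p was 0.0586 without CCI 1, 0.0562 without CCI 2, 0.0667 without sham 1 and 0.0588 without sham 2 by the quasi-likelihood test of edgeR, with log2 fold changes of 0.17, 0.19, 0.16 and 0.18. Traf7, whose carboxy-terminal part carries WD40 repeats in place of the TRAF domain, was the most abundant of the set and had 23.3, 24.1 and 22.5 CPM in CCI 1, 2 and 3 and 23.4, 23.7 and 23.3 CPM in sham 1, 2 and 3. Its 95% interval of the log2 fold change, -0.16 to 0.14, was among the narrowest of the family.

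Traf3, which restrains the alternative NF-kappaB pathway by holding the kinase Map3k14 at a low level, had 55.6, 59.3 and 57.2 CPM in CCI 1, 2 and 3 and 55.6, 66.2 and 66.9 CPM in sham 1, 2 and 3. Sham 2 and sham 3 were above every CCI library and sham 1 was level with CCI 1, and the log2 fold change was -0.13 (SE 0.09), or -0.21 without sham 1 (unadjusted p = 0.0158 by the quasi-likelihood test of edgeR). Traf2, the adaptor recruited to both TNF receptors, had a log2 fold change of -0.29, Traf4 one of 0.11 and Traf5 one of 0.48, with every CCI library above every sham library in Traf5 alone of these, and none was called. Traf1, which is itself induced by NF-kappaB, lay just under the filter at 0.443 FPKM.

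Of the proteins that bind TRAF3, Traf3ip2 (Act1), an adaptor of the interleukin-17 receptor, had 13.7, 14.6 and 14.1 CPM in CCI 1, 2 and 3 and 16.1, 13.1 and 14.6 CPM in sham 1, 2 and 3. Traf3ip1, a part of the transport machinery of cilia, had 13.8, 14.1 and 12.4 CPM in CCI 1, 2 and 3 and 15.2, 14.9 and 12.8 CPM in sham 1, 2 and 3. In both genes the sham values spread around or just above the CCI values, with log2 fold changes of -0.05 (SE 0.10) and -0.09 (SE 0.10). Traf3ip3, a modulator of JNK signalling in lymphoid and myeloid cells, lay under the filter and is described with the other members of low count below.

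Above the filter, the TNF-induced proteins were the set in which calls fell, 2 of 8, all of which were tested. The set is defined by symbol, which in Tnfaip8l1, Tnfaip8l2 and Tnfaip8l3 marks likeness to Tnfaip8. Induction by TNF was not tested. Of all rows tested 2.57% were called higher. The fit with no filter also called members of other roles, described below. Tnfaip8l3, a lipid transfer protein of the TNFAIP8 family that binds phosphoinositides, had 350, 255 and 291 counts in CCI 1 to 3 and 176, 133 and 222 in sham 1 to 3. Every CCI library was above every sham library, with means of 3.77 ± 0.576 CPM and 2.12 ± 0.516 CPM (SD, n = 3). The log2 fold change was 0.83 (SE 0.23, 95% interval 0.27 to 1.38, unadjusted p = 0.0104, adjusted p = 0.286 by the quasi-likelihood test of edgeR after Benjamini-Hochberg adjustment). The call held with each library left out in turn, sham 1 and CCI 1 included, over a range of 0.68 to 1.03, with 0.79 without sham 1 and 0.72 without CCI 1. It was lost only with limma on log2(FPKM + 1), at 0.46, below the limit on fold.

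Tnfaip6 (TSG-6), a secreted protein that binds hyaluronan and remodels matrix in inflamed tissue, had 236, 183 and 92 counts in CCI 1 to 3 and 45, 109 and 73 in sham 1 to 3. CCI 1 and CCI 2 were well above the sham libraries, CCI 3 lay between sham 3 and sham 2, and the groups overlapped. With means of 2.13 ± 0.858 CPM and 0.924 ± 0.433 CPM (SD, n = 3), the log2 fold change was 1.21 (SE 0.46, 95% interval 0.10 to 2.31, unadjusted p = 0.0373, adjusted p = 0.423 by the quasi-likelihood test of edgeR after Benjamini-Hochberg adjustment). The call was lost without CCI 1 (0.91, unadjusted p = 0.12), CCI 2 (1.16, unadjusted p = 0.0834), sham 1 (0.91, unadjusted p = 0.092) or sham 3 (1.18, unadjusted p = 0.0907), each by the quasi-likelihood test of edgeR. With limma on log2(FPKM + 1) the log2 fold change was 0.57, also not called, and the direction was kept in all of these fits.

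The remaining TNF-induced proteins were not called. Tnfaip1, an adaptor of a cullin ubiquitin ligase and the most abundant of the set at 11.7 FPKM, had 85.1, 81.7 and 80.8 CPM in CCI 1, 2 and 3 and 69.6, 76.7 and 78.1 CPM in sham 1, 2 and 3. All CCI libraries were above all sham libraries, by a log2 fold change of 0.14 (SE 0.06) that was 0.09 without sham 1. Tnfaip3 (A20), the ubiquitin-editing enzyme that shuts off NF-kappaB and a classical target of it, had 4.87, 6.07 and 6.82 CPM in CCI 1, 2 and 3 and 5.12, 6.20 and 6.67 CPM in sham 1, 2 and 3. Both groups spanned nearly the same values, and the log2 fold change was -0.02 with a 95% interval from -0.44 to 0.41. Tnfaip8, a regulator of cell survival, had 2.72, 4.49 and 4.14 CPM in CCI 1, 2 and 3 and 3.04, 2.95 and 3.32 CPM in sham 1, 2 and 3. CCI 1 was the lowest of all libraries and the other CCI libraries were the highest, a log2 fold change of 0.29 (SE 0.22) that was 0.48 without CCI 1 and 0.15 without CCI 2. Tnfaip8l1, Tnfaip8l2 and Tnfaip2 had log2 fold changes of 0.41, 0.42 and -0.04, with overlapping groups.

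Promoters of the called members and of the uncalled NF-kappaB target Tnfaip3 are printed because these 3 genes set the moved members beside one that did not pass the test. RefSeq promoters of 300 bases, 250 before and 50 after the start of the gene, were matched by symbol to 47 of the 57 members. They were searched on both strands for the AP-1 motif TGANTCA and for the NF-kappaB site, and the matches of the AP-1 motif and the NF-kappaB site are in capitals. Sequences are from build GRCr8, whose coordinates differ from those of the deposited table. The Tnfaip6 promoter (chr3:56911148-56911447, + strand) held 1 AP-1 match, starting at -192 from the start of the gene, and no NF-kappaB match. The Tnfaip8l3 promoter (chr8:63351638-63351937, - strand) held neither. The Tnfaip3 promoter (chr1:15543930-15544229, - strand) held 1 AP-1 match at -181 and 3 NF-kappaB matches at -170, -67 and -55, with no overlap between them.
Tnfaip6: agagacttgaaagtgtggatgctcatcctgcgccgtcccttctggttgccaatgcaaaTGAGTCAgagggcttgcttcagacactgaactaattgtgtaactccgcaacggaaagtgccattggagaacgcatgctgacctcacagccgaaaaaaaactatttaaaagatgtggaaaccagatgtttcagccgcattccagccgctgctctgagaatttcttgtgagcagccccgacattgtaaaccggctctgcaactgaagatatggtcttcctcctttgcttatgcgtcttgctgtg
Tnfaip8l3: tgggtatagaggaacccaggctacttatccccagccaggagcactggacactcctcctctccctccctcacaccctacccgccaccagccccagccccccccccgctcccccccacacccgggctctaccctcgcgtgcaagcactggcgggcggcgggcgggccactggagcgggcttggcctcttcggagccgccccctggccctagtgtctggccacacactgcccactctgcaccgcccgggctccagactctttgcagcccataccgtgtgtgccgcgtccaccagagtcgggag
Tnfaip3: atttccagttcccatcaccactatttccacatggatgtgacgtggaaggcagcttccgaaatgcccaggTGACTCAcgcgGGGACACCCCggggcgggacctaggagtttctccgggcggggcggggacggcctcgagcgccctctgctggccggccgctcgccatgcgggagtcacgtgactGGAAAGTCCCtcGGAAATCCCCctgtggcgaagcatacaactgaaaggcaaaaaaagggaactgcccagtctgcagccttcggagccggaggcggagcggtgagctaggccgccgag

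Over the 47 promoters, 7 (14.9%) held an AP-1 match, those of Fas, Tnfaip3, Tnfaip6, Tnfrsf1b, Tnfrsf8, Traf1 and Traf3ip2, and 9 (19.1%) held an NF-kappaB match, beside 2453 (7.33%) and 1400 (4.18%) of 33469 promoters of the same length in the table. The NF-kappaB matches were in Cd70, Lta, Ltb, Tnfaip3, Tnfaip8l1, Tnfrsf8, Tnfsf14, Traf3 and Traf3ip2, and in Cd70 the 2 matches overlap each other. None of these 9 was called in edgeR's test, although only Ltb, Tnfaip3, Tnfaip8l1, Traf3 and Traf3ip2 among them were tested. A match describes letters in this window and not a bound site, and a window without one says nothing about the factor.

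Among the members under the filter, 4 had all CCI libraries above all sham libraries, beside 4.79% of the rows under the filter that had a count. In 0 of these members they lay below, and the share of all such rows is not given here. Tnfsf13b (BAFF), the survival factor of B cells, made by macrophages and other myeloid cells, had 85, 94 and 66 counts in CCI 1 to 3 and 60, 50 and 56 in sham 1 to 3. Its receptor Tnfrsf13c (BAFF receptor) had 17, 8 and 8 counts in CCI 1 to 3 and 0, 0 and 0 in sham 1 to 3. Over a floor of 3 counts per library its mean CPM was at least 3.82-fold higher, which covers counting error only. This is no bound where a 0 does not mean low expression, as described below. Tnfrsf17 (BCMA), a receptor of plasma cells that binds Tnfsf13 and Tnfsf13b, had 21, 13 and 14 counts in CCI 1 to 3 and 11, 7 and 9 in sham 1 to 3. In all 3 genes the CCI libraries were the higher ones, without overlap and at low counts. The remaining receptor of this axis, Tnfrsf13b (TACI), had 0 to 9 counts per library with the groups overlapping. The sum of the B cell markers overlapped between the groups, at 1.43, 0.648 and 0.838 summed FPKM in CCI 1, 2 and 3 and 1.43, 1.17 and 0.898 in sham 1, 2 and 3, with none at 0 in every library. Cd79a, the most abundant of them, had 28, 25 and 26 counts in CCI 1 to 3 and 60, 56 and 35 in sham 1 to 3, so that here the CCI libraries were the lower ones, opposite to Tnfrsf13c and Tnfrsf17, without a call in the fit with no filter (log2 fold change -0.86, SE 0.38).

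Traf3ip3 had 89, 71 and 96 counts in CCI 1 to 3 and 66, 40 and 39 in sham 1 to 3. All CCI libraries were the higher ones, with sham 1 close to CCI 2. Its span overlaps by 547 bases a row on the opposite strand, LOC100125367, with 389, 407 and 321 counts in CCI 1 to 3 and 435, 397 and 365 in sham 1 to 3, and since the use of strand in counting is not stated, reads of the shared stretch cannot be told apart. Fitted without the filter on all 35757 rows with a count, edgeR's test called 5 members higher, Tnfaip6, Tnfaip8l3, Tnfsf13b, Tnfrsf13c and Traf3ip3, beside 2.54% of all rows. Traf3ip3 had a log2 fold change of 0.90 (SE 0.32, unadjusted p = 0.0245) and Tnfsf13b one of 0.63 (SE 0.26, unadjusted p = 0.0477) in that quasi-likelihood test of edgeR. The call of Traf3ip3 was lost without CCI 1, CCI 3, sham 2 or sham 3, with log2 fold changes of 0.89, 0.78, 0.82 and 0.78 (unadjusted p up to 0.0774 by the quasi-likelihood test of edgeR). That of Tnfsf13b was lost without CCI 1, CCI 2, sham 1, sham 2 or sham 3, with values of 0.61, 0.53, 0.65, 0.59 and 0.64 (unadjusted p up to 0.144 by the quasi-likelihood test of edgeR). That of Tnfrsf13c (unadjusted p = 0.00681 by the quasi-likelihood test of edgeR) rests on no more than 17 counts in any library, and against 0 in every sham library the leaving out of a sham library is no check of it. In the whole table, 23 rows had 0 counts in every sham library and at least 8 in every CCI library, and 9 rows the reverse. A 0 in this table need not mean low expression, since 81 rows had 0 in 1 library and at least 100 counts in each of the others, among them Map3k7 of the NF-kappaB list, with 0 in sham 3 and 1862 to 2220 elsewhere. Tnfrsf17 was not called (log2 fold change 0.89, SE 0.62).

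**Figure D5:**
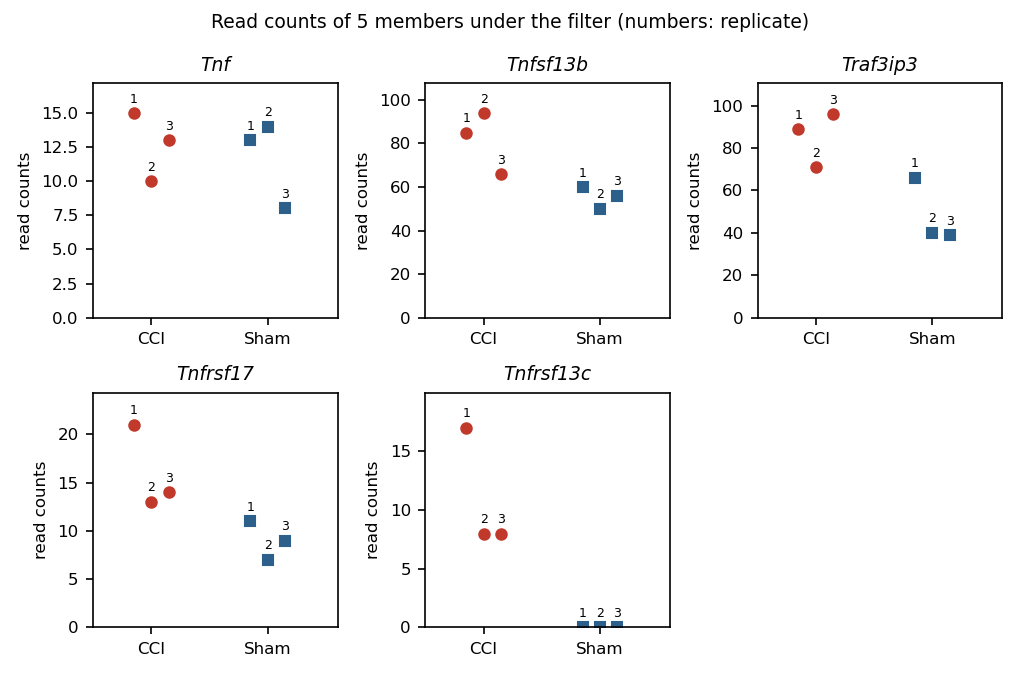
Read counts of 5 members under the filter in each library, with the axis from 0, circles for CCI, squares for sham and the replicate number above each point. Tnfrsf13c was seen in the CCI libraries alone, at 17, 8 and 8 counts, while the counts of Tnf overlap between the groups.

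Ligands and their receptors were often present at unequal levels. In FPKM of the row kept for each symbol, Tnf had a mean of 0.0782 against 16.9 for Tnfrsf1a and 1.38 for Tnfrsf1b. By the counts of their own rows, both TNF receptors thus exceeded their ligand. Reads of Tnf assigned to the long rows that span it were not analysed and could raise its level. Tnfsf12 at 5.97 FPKM was above its receptor Tnfrsf12a at 2.55 FPKM, while Tnfsf15 at 1.83 FPKM stood beside 3.07 FPKM for the joined row of Tnfrsf25. Faslg had 0.575 and Fas 1.34 FPKM. Tnfsf11 had no count, whereas its receptor Tnfrsf11a had 1.3 FPKM and its soluble decoy receptor Tnfrsf11b 0.227 FPKM. The sums of the 22 receptors, 124, 112 and 105 FPKM in CCI 1, 2 and 3 and 87.8, 91.6 and 86.7 FPKM in sham 1, 2 and 3, were set mainly by Tnfrsf21. Those of the 17 ligands, 12.9, 13.9 and 13.8 FPKM in CCI 1, 2 and 3 and 13.4, 13.7 and 12.4 FPKM in sham 1, 2 and 3, overlapped between the groups.

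Several members lie side by side in the genome the authors call V101. Lta, Tnf and Ltb are neighbours on chromosome 20 with gaps of 1.15 and 2.89 kb, and Tnfsf13 and Tnfsf12 lie 0.828 kb apart on chromosome 10. The neighbours Tnfsf13 and Tnfsf12 had log2 fold changes of 0.03 and 0.07, while Lta and Tnf lay under the filter and Ltb had 0.32. On chromosome 5, Tnfrsf1b lies 19.1 kb from Tnfrsf8 and Tnfrsf4 lies 9.88 kb from Tnfrsf18, and of these only Tnfrsf1b passed the filter. In the annotation carried by the deposited table, 38 members are placed in the cytokine-cytokine receptor interaction pathway of KEGG, 16 in NF-kappa B signaling, 9 in TNF signaling and 7 in apoptosis, out of 45 members with any KEGG entry.

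The other genes of the pathway were read from 4 lists, 56 genes in all, of which 55 were tested. By edgeR's test 3 (5.45%) were called higher, Bcl3, Jun and Ripk3, and 0 lower, beside 2.57% and 1.26% of all rows, and DESeq2 also called 0 lower. At any fold, 6 (10.9%) were higher and 3 (5.45%) lower at an unadjusted p under 0.05, beside 5.57% and 5.18% of all rows, and these shares are the measure for each list below as well. Their median log2 fold change was 0.07. Among 6 receptors and processing genes outside the symbol rule, 5 were tested and 0 called by edgeR or DESeq2, and 0 had an unadjusted p under 0.05. Ngfr, the low-affinity neurotrophin receptor, belongs to the TNF receptor superfamily and is left out of the members by its symbol. At 149 FPKM it was more abundant than any member. It had 37300, 42437 and 40423 counts in CCI 1 to 3 and 45207, 48568 and 45864 in sham 1 to 3, with a log2 fold change of -0.15 (SE 0.09) and overlapping groups after scaling. Adam17, the protease that sheds TNF from the membrane, and Ltbr, the receptor of Ltb, had log2 fold changes of 0.06 and -0.02.

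In the death signalling list 1 of 17 genes was called higher and 0 lower by edgeR or DESeq2, with 0 lower at an unadjusted p under 0.05 and a median log2 fold change of 0.12. Ripk3, the kinase of necroptosis, had 214, 139 and 159 counts in CCI 1 to 3 and 109, 47 and 107 in sham 1 to 3. Every CCI library was above every sham library and sham 2 was the lowest of all, with a log2 fold change of 1.04 (SE 0.35, unadjusted p = 0.0223, adjusted p = 0.363 by the quasi-likelihood test of edgeR after Benjamini-Hochberg adjustment). Without CCI 1 it was 0.87 and no longer called (unadjusted p = 0.0722 by the quasi-likelihood test of edgeR), and with limma on log2(FPKM + 1) it was 0.43, below the limit on fold. The most abundant genes of the list were Sharpin, Bid and Rbck1, with log2 fold changes of -0.07, 0.46 and -0.00. Of these, Bid was called without sham 1, at 0.81.

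Of 23 genes of NF-kappaB signalling, all tested, 1 was called higher and 0 lower by edgeR or DESeq2, with 3 higher and 1 lower at an unadjusted p under 0.05 and a median log2 fold change of 0.10. Bcl3, a nuclear IkappaB protein, had 7.32, 5.29 and 5.42 CPM in CCI 1, 2 and 3 and 2.85, 2.36 and 2.08 CPM in sham 1, 2 and 3. The groups were far apart, and the level was 2.47-fold higher in the CCI group (SE 0.20 on the log2 scale, adjusted p = 0.109 by the quasi-likelihood test of edgeR after Benjamini-Hochberg adjustment, and 3.5e-06 with DESeq2 to 0.307 over the alternatives). Fits that left out 1 library gave log2 fold changes from 1.14 to 1.43. The most abundant genes of the list, Tab2, Tnip1 and Rela, had log2 fold changes of -0.06, 0.25 and 0.20. The inhibitor gene Nfkbia, a direct target of NF-kappaB named after its values were seen, had one of 0.34 (SE 0.24) with overlapping groups.

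In the kinase branch 1 of 10 genes was called higher and 0 lower by edgeR or DESeq2, with 1 higher and 2 lower at an unadjusted p under 0.05 and a median log2 fold change of 0.04. Jun, the AP-1 subunit phosphorylated by JNK, had 13583, 10727 and 9049 counts in CCI 1 to 3 and 5787, 5334 and 5619 in sham 1 to 3. The log2 fold change was 1.06 (SE 0.12, adjusted p = 0.0712 by the quasi-likelihood test of edgeR after Benjamini-Hochberg adjustment, and 7.8e-12 with DESeq2 to 0.227 over the alternatives), and fits that left out 1 library gave 0.91 to 1.16. The CCI libraries were all above the sham libraries, which lay close together. Map2k4, the kinase upstream of JNK and the most abundant gene of the list at 32.3 FPKM, had 10037, 10156 and 9797 counts in CCI 1 to 3 and 12580, 12065 and 12688 in sham 1 to 3. All CCI libraries were the lower ones, with a log2 fold change of -0.25 (SE 0.05), below the limit on fold. Mapk10, the neuronal JNK, had one of -0.12 (SE 0.11).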

How the data were processed

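RNA from the ganglia of 6 rats (3 CCI, 3 sham) was sequenced. The processing notes of the submitters list HISAT2 2.0 and StringTie 1.3.0, and the authors mapped reads to a rat genome they call V101. The deposited table holds whole read counts per gene row and FPKM values that the authors normalized by row length and depth, in which rows with 0 counts carry a small constant. Use of strand is not stated. Rows without a symbol (6849) held 5.37 to 5.72% of the counts.

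Members were taken by symbol, with 1 row kept per symbol (protein coding first, then the largest count sum). The 7 further rows carrying a member symbol were not counted as members and none was called. Members and lists were chosen with earlier results of these data known. Members named with values in every sample were those called, those whose groups do not overlap while the log2 fold change reaches 0.58 in either direction, the 3 with the highest mean FPKM in each role, and Tnf, Tnfrsf1a and Tnfrsf1b. Partner genes named were those called and the 3 with the highest mean FPKM in each list. Lists of markers covered sensory neurons, satellite glia, macrophages, T cells, B cells, neutrophils, mast cells, endothelium, fibroblasts, skeletal muscle, adipocytes, erythrocytes and nerve injury. Markers of Schwann cells are not reported here.

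Counts were scaled by TMM and tested with edgeR 4.0.16 (quasi-likelihood, R 4.3.3) on rows whose mean FPKM reached 0.5, with Benjamini-Hochberg adjustment over 26663 rows. Alternatives were DESeq2 1.42.0, its size factors in the edgeR fit, limma 3.58.1 on log2(FPKM + 0.1) and log2(FPKM + 1), no filter, a filter at 1 FPKM, replicate number as a block, and each library left out. The fits were tested on simulated data. Promoters are RefSeq sequences of build GRCr8.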

Additional observations from a re-analysis of the deposited data

How the results depend on the processing

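Over 13 settings besides the reported one, 24 named members gave 277 alternative fold changes. Tnf, Tnfsf13b, Traf3ip3, Tnfrsf17 and Tnfrsf13c, which lay under the filter, had only 6 each, from fits with no filter that left out 1 library. They were not fitted with DESeq2, limma or the replicate block. Of the 277 fold changes, 251 kept their direction and stayed called or not called, 16 lost a call, 1 gained one and 9 reversed. Some of the 251 still crossed a single limit, as Traf6 did for its unadjusted p with a library left out. Members called higher numbered 5 without a filter, 0 with limma on log2(FPKM + 1) and 1 to 3 with each library left out. Members at an adjusted p under 0.05 (Benjamini-Hochberg) numbered 2 with DESeq2. Rows at an adjusted p under 0.05 numbered 751 with DESeq2 and 6 to 61 with each library left out, and rows called higher and lower numbered 410 and 161 with limma on log2(FPKM + 1). Partner genes called higher numbered 2 to 5, and called lower 0 to 1, with each library left out. The cause was not tested.

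Log2 fold changes that reversed with a library left out ran from -0.13 to 0.10 for Tnfaip3 (above 0 without CCI 1, sham 2 or sham 3, at 0.10, 0.01 and 0.07), -0.03 to 0.01 for Traf7 (0.01 without CCI 3), -0.12 to 0.03 for Traf3ip2 (0.03 without sham 1), -0.04 to 0.12 for Tnfsf13 and -0.02 to 0.38 for Tnf (both lowest without sham 3). Traf7 was also at 0.01 and 0.00 with limma on log2(FPKM + 0.1) and log2(FPKM + 1). Among partner genes they ran from -0.11 to 0.10 for Ltbr and -0.06 to 0.14 for Adam17 (both reversed without CCI 3) and from -0.05 to 0.02 for Rbck1, which was at 0.01 with limma on either scale and without CCI 1 or CCI 2. The cause was not tested.

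Replicate numbers do not pair the rats. Correlations of same-numbered libraries across rows were -0.011, -0.026 and -0.074, and not every library correlated best with its own number. With the number as a replicate block, 1 member was called higher (Tnfaip8l3) and 0 rows passed an adjusted p under 0.05 (Benjamini-Hochberg).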

Other observations

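The remaining marker lists give the surroundings in which the family was measured, with summed FPKM in CCI 1, 2 and 3 and then in sham 1, 2 and 3. Satellite glia markers (6, most abundant Apoe) measured 1010, 1110 and 1060 against 1010, 1070 and 999. Fibroblast markers (5 of 6 in the table, most abundant Dcn) measured 389, 684 and 606 against 614, 580 and 598, with CCI 1 the lowest. Endothelial markers (6 of 7 in the table, Cldn5 at 0) measured 17.3, 22.9 and 21.3 against 24.8, 19.3 and 20.2, and mast cell markers (6, Mcpt1 at 0) 15.0, 14.9 and 14.6 against 9.13, 14.2 and 15.0. Erythrocyte markers (4 of 6 in the table) measured 173, 109 and 223 against 362, 171 and 154, and adipocyte markers (6, Lep at 0) 1.21, 0.394 and 1.76 against 4.58, 0.498 and 0.345, both highest in sham 1. These sums overlapped between the groups in each list, and none of the genes that passed the filter was called. Single genes did not always follow the sum. Of the satellite glia markers, Cdh19 was above all sham libraries in every CCI library (log2 fold change 0.37, SE 0.10) and Fabp7 below (-0.55, SE 0.26). Of the adipocyte markers only Fabp4 passed the filter, and Cidec, with 157, 67 and 44 counts in CCI 1, 2 and 3 against 8 in each sham library, was called higher in the fit with no filter (log2 fold change 3.51, SE 0.56).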
